A study of Mus musculus with 384 samples.

Results

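Fibroblast growth factor (FGF) ligands and receptors were followed in single cells sorted from the lungs of 4 adult mice. The 10 genes were taken by name, with no threshold on their values, from the 23422 genes of the deposited tables. Of these, 6 were ligands (Fgf10, Fgf7, Fgf1, Fgf2, Fgf9 and Fgf18) and 4 were receptors (Fgfr1, Fgfr2, Fgfr3 and Fgfr4). Earlier results of these data were known when the genes were chosen. Of the animals, 2 were Lgr5-CreERT2;R26-Tom and had been given tamoxifen, and their cells were sorted as Tom+, while 2 were Lgr6-EGFP-CreERT2 and gave cells sorted as GFP+. All 4 sorts were also gated as CD31-, CD45-, CD11b- and TER119-, which removes endothelial, immune and red blood cells. The animals are called Lgr5 mouse 1 and 2 and Lgr6 mouse 1 and 2. Per the labels, mice of 7 to 10 weeks served for most experiments of the study. In the Lgr5 line, Cre driven by the Lgr5 locus switches on Tom in cells that express Lgr5 at the time of tamoxifen, and their descendants keep it. GFP in the Lgr6 line follows the Lgr6 locus at the time of the sort. The line, its reporter and the tamoxifen treatment cannot be told apart in this design.

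FGFs are secreted signals that bind receptor tyrosine kinases together with heparan sulphate on the cell surface. In the developing lung, Fgf10 from the mesenchyme acts on the IIIb splice form of Fgfr2 in the epithelium and drives branching, and Fgf7, also called keratinocyte growth factor, uses the same form. Ligands such as Fgf9 and Fgf18 act mainly on the IIIc forms of the receptors, which mesenchymal cells carry, and Fgf1 and Fgf2 bind several receptors. Deposited values were per gene, so the IIIb and IIIc forms were not separated.

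Of 380 single-cell wells, the authors kept 29 and 28 cells for the Lgr5 line (mouse 1 and 2) but 50 and 75 for the Lgr6 line. Median reads per kept cell were 263129, 272729, 332588 and 1537590 in Lgr5 mouse 1 and 2 and Lgr6 mouse 1 and 2, so Lgr6 mouse 2 was by far the deepest. The Lgr5 gene stood at a mean log2(TPM + 1) of 4.99 ± 0.42 (SD, n = 2 mice) in the Lgr5 line and at 0.51 ± 0.31 in the Lgr6 line. In contrast, the Lgr6 gene was detected in 29.9% ± 3.22 of the cells in the Lgr5 line and in 30.3% ± 6.13 in the Lgr6 line, so its transcript did not set the sorts apart. Cells were split by Acta2, which encodes smooth muscle actin, at a log2(TPM + 1) of 11, and by whether Pdgfra, a receptor of fibroblasts, had at least 1 read. Acta2-high cells numbered 1, 0, 27 and 38 in the 4 mice, and Pdgfra-detected cells 6, 3, 7 and 11. No gap separated the Acta2 classes, as the cells nearest the threshold lay at 10.97 and 11.03.

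The labelled mesenchymal identity was checked against marker lists. Acta2 and Pdgfra, which define the classes, were left out of their own lists. Over 7 other airway smooth muscle genes, Acta2-high Lgr6 cells summed to a mean of 17843 and 16836 TPM and Acta2-lower cells without Pdgfra to 1137 and 1369. Over 6 other alveolar fibroblast genes, Pdgfra-detected cells of the 4 mice summed to 403, 552, 1348 and 1052 TPM, against 68.2 and 42.9 in the Acta2-high Lgr6 cells. Epithelial transcripts (Sftpc, Sftpb, Epcam and 6 others) were present in all classes. Their summed means were 32481, 34714, 57483 and 48808 TPM in cells of neither class, 8126, 1265, 5321 and 458 TPM in Pdgfra-detected cells, and 90.5 and 5.52 TPM in Acta2-high Lgr6 cells. On the mean log2(TPM + 1) scale the Lgr5-line Pdgfra-detected cells were higher in these genes (2.79 and 3.32) than the cells of neither class (2.44 and 2.14). Although TER119 was gated out, transcripts of 3 erythroid genes summed to 2326 and 2822 TPM in the kept cells of the Lgr5 line but to 2.40 and 6.19 TPM in those of the Lgr6 line. They thus set the lines apart wherever the lines are compared. Of the 3 genes, the globin Hbb-bh1 was found in 56 kept cells, Gata1 in 22 and the globin Hba-a1 in only 10. Pecam1, 1 of the 4 endothelial genes, was at 0 in every class. The authors had removed wells with Pecam1 at 1 TPM or more, so the filter largely set this value. The summed mean of the 4 genes was at most 38.2 TPM, and that of 5 mesothelial genes at most 53.7 TPM. The 4 listed immune genes, mainly Lyz2, summed to 1812, 4977, 15258 and 9718 TPM in cells of neither class. Lyz2 was found in 32 kept cells, Cd68 in 11, Ptprc in 2 and Cd3e in 0, so this sum alone does not mark immune cells. Ptprc was filtered in the same way as Pecam1. Sums of 3 general mesenchymal genes were lower there, at 1605, 1761, 1803 and 1417 TPM. In Acta2-high Lgr6 cells the immune sums were 25.2 and 40.1 TPM. Pericyte genes summed to 550.8 and 751.2 TPM in Acta2-high Lgr6 cells and to 406.3, 191.6, 846.1 and 503.4 TPM in cells of neither class. The epithelial, erythroid, endothelial and immune transcripts moved with the classes or the lines. The part of these lists in the differences below was not tested. Some values are also given without cells that had Epcam or Sftpc above 1 TPM.

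Fgf10 was a minority transcript in both lines. In the Lgr5 line, at least 1 read was found in 9 of 29 cells of mouse 1 and 8 of 28 of mouse 2, and in the Lgr6 line in 11 of 50 and 18 of 75. These are 31.03% (exact Clopper-Pearson 95% interval 15.3 to 50.8) and 28.6% (13.2 to 48.7) against 22% (11.5 to 35.96) and 24% (14.9 to 35.3). The intervals of all 4 mice overlapped, and they cover counting error only, since PCR reads without molecular identifiers are not independent molecules. Of the 46 cells with Fgf10, 19 had a single read. After each cell was thinned to 99000 reads, shares were 25%, 20%, 10.8% and 6.8%. Mean levels as log2(TPM + 1) were 0.99 and 0.96 for the Lgr5 line against 0.85 and 0.28 for the Lgr6 line. Reads were concentrated in few cells: 1 Acta2-high cell held 325 of the 551 Fgf10 reads of Lgr6 mouse 1, and 1 Acta2-lower cell held 277 of the 498 of Lgr5 mouse 2. Fgf10 lies at chr13:118669791-118792115 (mm10, plus strand).

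Fgf7 (chr2:126034658-126091185) was the ligand found in the most cells. It was detected in 24 of 29, 15 of 28, 26 of 50 and 51 of 75 cells, with mean levels of 4.91, 2.60, 2.88 and 3.65. The Lgr5 mice held both the highest and the lowest level, and the lines overlapped. Of the 46 cells with Fgf10, 31 also held Fgf7, and of the cells with Fgf7, 26.7% held Fgf10.

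**Figure D1:**
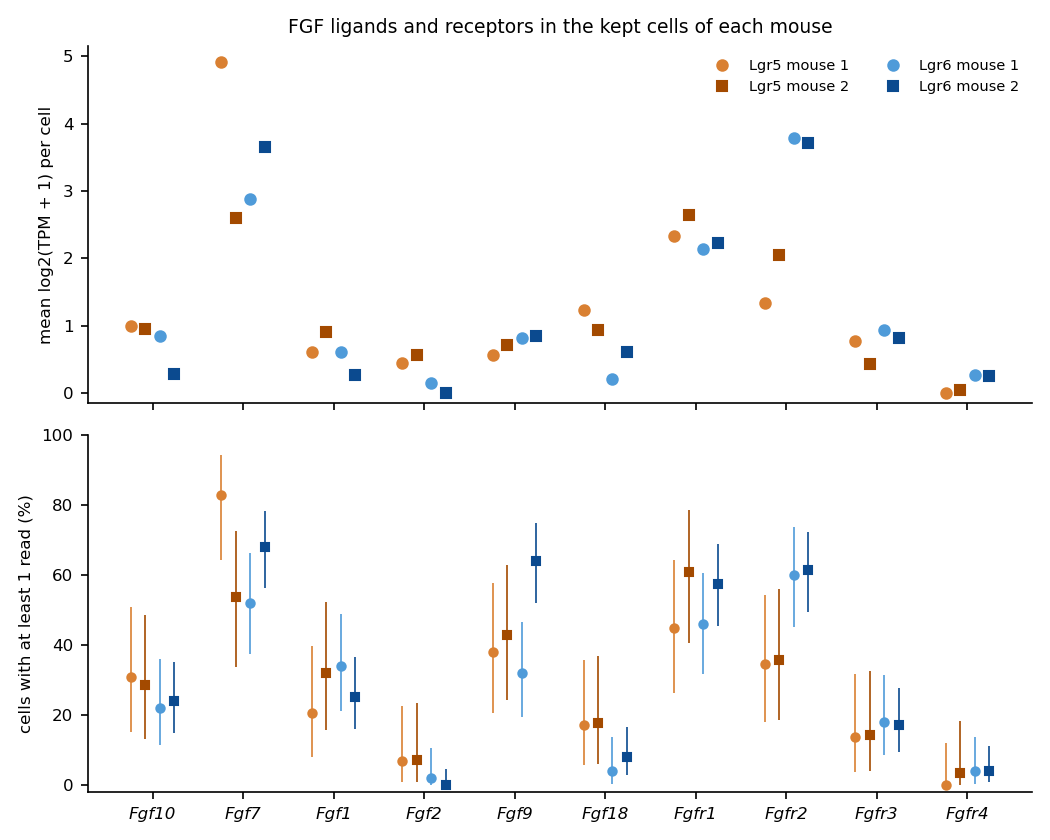
Mean log2(TPM + 1) over the kept cells (top) and share of cells with at least 1 read in percent (bottom) for the 10 genes, with 1 point per mouse and exact Clopper-Pearson 95% intervals as bars. Fgfr2 lies at 1.34 and 2.06 for the Lgr5 line and higher, at 3.78 and 3.71, for the Lgr6 line, and Fgf2 and Fgfr4 lie near 0 throughout.

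The other ligands were sparser. Fgf9 was detected in 37.9%, 42.9%, 32% and 64% of cells. Lgr6 mouse 2, the deepest, had the highest share, and after thinning the shares were 14.3%, 28%, 13.5% and 12.3%, with Lgr6 mouse 2 the lowest. Fgf1 was found in 6, 9, 17 and 19 cells, and a single cell held 92.8% of its reads in Lgr5 mouse 1. Fgf18 was found in 5, 5, 2 and 6 cells, with mean levels of 1.23 and 0.94 for the Lgr5 line against 0.21 and 0.61 for the Lgr6 line, and a single cell held 98.2% of its reads in Lgr5 mouse 2. Fgf2 was the rarest ligand, with 5 kept cells in all (2, 2, 1 and 0). Its 0 of 75 cells in Lgr6 mouse 2 allows a share of up to 4% of cells with a read, taking 3 cells as the limit that a count of 0 allows (counting error only).

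Among the receptors, Fgfr1 (chr8:25513654-25575718) and Fgfr2 (chr7:130162451-133123350) were each found in 96 kept cells. Fgfr1, the main FGF receptor of mesenchyme, was detected in 44.8%, 60.7%, 46% and 57.3% of cells, with mean levels of 2.34, 2.64, 2.14 and 2.24. Fgfr2 was detected in 10 of 29 and 10 of 28 Lgr5-line cells but in 30 of 50 and 46 of 75 Lgr6-line cells, or 34.5% and 35.7% against 60% and 61.3%. Both Lgr6 mice lay above both Lgr5 mice. This order was the same after thinning (32.1% and 32% against 64.9% and 57.5%). Fgfr3 (chr5:33721674-33737068) was found in 4, 4, 9 and 13 cells. Fgfr4 (chr13:55152640-55168759) was found in 6 cells in all, 0, 1, 2 and 3 of them per mouse.

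A kept cell held a median of 3 of the 10 genes. At least 1 ligand was found in 160 kept cells and at least 1 receptor in 150. Exactly 1 receptor was found in 82 cells and 2 in 58, and 4 cells held none of the 10 genes.

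Between the lines, Fgfr2 showed the widest separation of the mean levels. It averaged 1.70 ± 0.51 (SD, n = 2) for the Lgr5 line and 3.75 ± 0.06 for the Lgr6 line, a difference of 2.05 on the log2(TPM + 1) scale. Over Acta2-lower cells alone the means were 1.72 ± 0.47 and 3.49 ± 0.01. An exact permutation test of 2 mice against 2 gave p = 0.33, two-sided, which is the smallest p this design allows. In all, 8 of 10 members had mean levels that did not overlap between the lines, in a table where 42.3% of 19715 detected genes did the same.

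On reads summed per mouse, edgeR's quasi-likelihood test called 0.00% of 14086 genes at an adjusted p of 0.05, and DESeq2 called 4.03%. None of the 9 members tested was called by edgeR, by DESeq2 or by limma, and 0 had an unadjusted p under 0.05 by edgeR, against 1312 of all genes. Fgfr4 was too low to be tested. Levels of summed reads are given as CPM, the reads scaled to the TMM-adjusted library total. Fgfr2 stood at 21.04 and 102.1 CPM for the Lgr5 line against 140.6 and 141.2 for the Lgr6 line, a log2 fold change of 1.19 ± 0.80 (SE, adjusted p = 0.721 by edgeR). Lgr5 mouse 1 was the low animal here. Fgf10 stood at 14.2 and 37.97 CPM against 19.7 and 3.86, a log2 fold change of -1.15 ± 1.24 (adjusted p = 0.836). The Lgr6 mice lay on either side of Lgr5 mouse 1. The median over the members was -0.29, beside 0.05 for all genes tested.

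Among Acta2-lower cells only, edgeR called 0.00% of 12958 genes and DESeq2 3.0%, and no member of the 9 tested was called by either or by limma. Fgf2, with an unadjusted p of 0.00473 and an adjusted p of 0.328, was the member with the smallest p in this edgeR fit. It had 32 reads in 56 Lgr5 cells and 0 reads in 60 Lgr6 cells, at least 34.5-fold lower against a floor of 3 reads over the Lgr6 cells. Those 32 reads came from 4 cells. The floor treats reads as independent, which PCR reads are not. By cells, 4 of 56 against 0 of 60 sets no bound of this size. The medians were -0.71 for the members and 0.00 for all genes.

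Acta2-high and Acta2-lower cells were compared within the 2 Lgr6 mice, the only animals with enough cells of both kinds. Fgfr3, a receptor with roles in alveolar septation together with Fgfr4, was nearly absent from the Acta2-high cells. It had 9 and 19 reads in the Acta2-high cells of mouse 1 and 2, in 2 of 27 and 2 of 38 cells, against 512 and 6953 reads in the Acta2-lower cells, in 7 of 23 and 11 of 37. In CPM these were 0.489 and 0.294 against 47.5 and 116.9, and the classes did not overlap in either mouse. The log2 fold change was -7.63 ± 1.42 (SE, n = 2 mice, unadjusted p = 0.00306, adjusted p = 0.487 by edgeR). DESeq2 on the same sums gave -7.68 and an adjusted p of 1.46e-10, and over all alternatives the adjusted p ran from 1.46e-10 to 1. Without Pdgfra-detected cells on either side, the edgeR value was -3.70 with an adjusted p of 1.

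Fgfr4 had 944 reads in the 60 Acta2-lower cells and 0 in the 65 Acta2-high cells of the Lgr6 mice, at least 355-fold lower against a floor of 3 reads over the Acta2-high cells. All of these reads came from 5 cells, and 935 of them from 3 cells of mouse 2. Here too the floor treats reads as independent. By cells, 5 of 60 against 0 of 65 sets no bound of this size. edgeR gave an adjusted p of 0.602 and DESeq2 one of 0.0193, with 0.0193 to 0.77 over the alternatives.

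In this comparison edgeR called 0.0296% of 13529 genes and DESeq2 6.82%. The genes called by edgeR, named after their values were seen, were Acta2 itself and the surfactant genes Sftpa1, Sftpc and Sftpd. Of the 9 members tested, edgeR called 0 and DESeq2 called 2, Fgfr3 and Fgfr4. The members' median was -0.54, beside 0.02 for all genes. Fgf2 was not tested, and its 73 reads came from 1 Acta2-high cell. Fgf10 went opposite ways in the 2 mice, from 8.07 CPM in lower to 25.2 in high cells in mouse 1 and from 7.65 to 0.17 in mouse 2. Its fitted value of -1.87 ± 3.77 therefore has no common direction behind it, although the share of cells with Fgf10 was lower among Acta2-high cells in both mice (5 of 27 against 6 of 23, and 5 of 38 against 13 of 37).

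Ligand Fgf7 and receptor Fgfr1 had higher mean levels in the Acta2-high cells of both mice, by 1.66 and 0.90 for Fgf7 and by 1.47 and 0.99 for Fgfr1 on the log2(TPM + 1) scale. Neither passed the test on summed reads, where edgeR gave 0.62 ± 0.67 and 0.81 ± 0.89. Fgfr1 was detected in 17 of 27 and 25 of 38 Acta2-high cells and in 6 of 23 and 18 of 37 lower cells. Fgfr2 also had higher mean levels in the Acta2-high cells, by 0.54 and 0.44, but on summed reads it stood at 111.1 and 162.9 CPM in lower cells and at 148.7 and 114.1 in high cells, with no common direction. In all, 8 of 10 members went one way in both mice by mean level, as did 41.4% of 19715 genes.

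**Figure D2:**
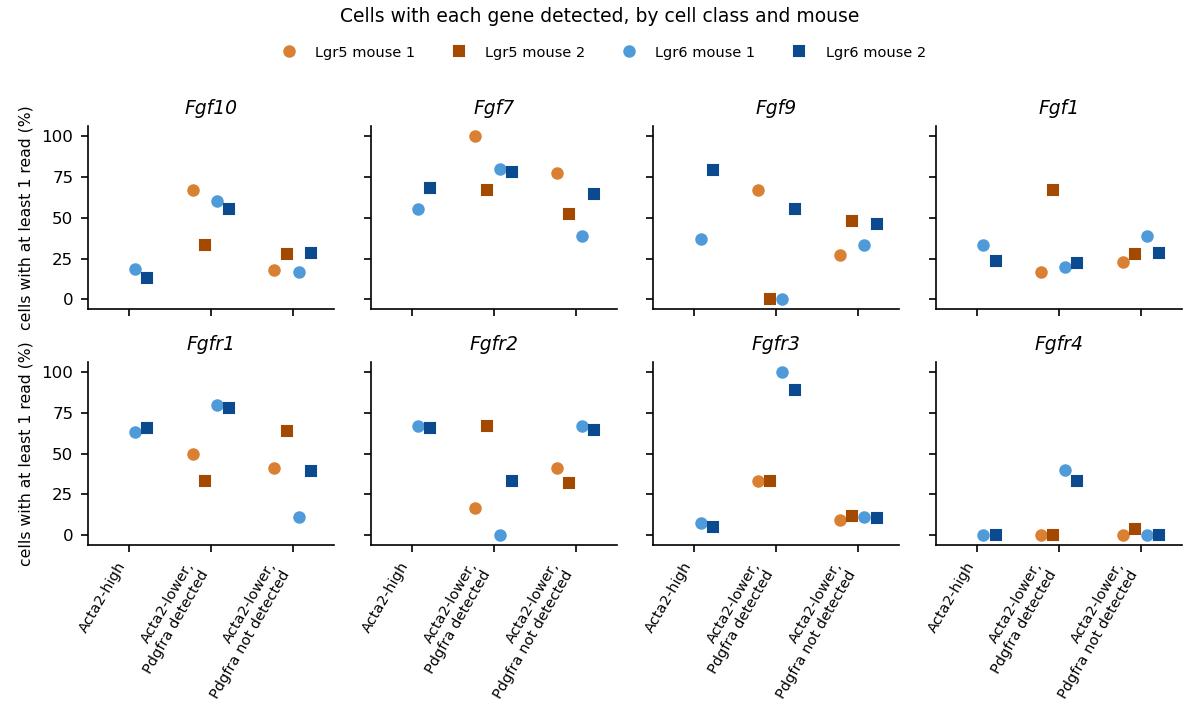
Share of cells with at least 1 read of 8 of the 10 genes, in percent, in Acta2-high cells, in Acta2-lower cells with Pdgfra and in Acta2-lower cells without it, with 1 point per mouse; the single Acta2-high cell of Lgr5 mouse 1 is not drawn. Fgfr3 lies at 100% and 88.9% in the Acta2-lower Pdgfra-detected cells of the Lgr6 mice, at 33.3% in those of both Lgr5 mice and at 12% or less in the other classes.

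In each of the 4 mice, Pdgfra-detected cells were set against the remaining cells of that animal. The Pdgfra-detected cells held more genes in each mouse, with medians of 5041.5, 5668, 3417 and 4384 against 4138, 3554, 3046 and 3619. The part of this in the shares and mean levels below was not tested. Fgfr3 was the member that stood out. It was detected in 2 of 6, 1 of 3, 6 of 7 and 8 of 11 Pdgfra-detected cells, against 2 of 23, 3 of 25, 3 of 43 and 5 of 64 of the others. Its CPM was 156.8, 28.3, 142.9 and 329 in the Pdgfra-detected cells and 1.45, 2.55, 0.905 and 4.77 in the others. No CPM value of one class reached the other. In Lgr5 mouse 2 the Fgfr3 reads of the Pdgfra-detected cells came from 1 cell, whose Pdgfra stood at a log2(TPM + 1) of 0. The other Pdgfra-detected cells of that mouse, with Pdgfra at 7.28 and 7.34, held no Fgfr3. A cell of that mouse without Pdgfra had Fgfr3 at 6.80. The log2 fold change was 6.00 ± 1.09 (SE, n = 4 mice), with an unadjusted p of 0.000366 and an adjusted p of 0.188 by edgeR.

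That value did not pass the threshold, while DESeq2 gave 6.17 with an adjusted p of 8.08e-09, and the adjusted p ran from 8.08e-09 to 0.737 over the alternatives. Without the mouse as a block, edgeR gave an adjusted p of 0.0464. Within Acta2-lower cells only, a subset chosen after seeing the data, the value was 5.40. In Lgr6 mouse 2, 2996 of the 6463 reads in Pdgfra-detected cells came from 1 cell. Without that mouse, the log2 fold change was 5.96 with an adjusted p of 0.737.

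Over all genes, edgeR called 0.0353% of 11327 in this comparison and DESeq2 6.93%. The genes called by edgeR, named after their values were seen, were Pdgfra itself, Hsd11b1 and Lamb1, which were higher, and Lyz2, which was lower. Of the 8 members tested, edgeR called 0 and DESeq2 1, Fgfr3. Fgf2 and Fgfr4 were too low to be tested. The members' median was -1.04, beside -0.67 for all genes, so a value near -0.67 was typical here.

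Fgf10 was detected in 4 of 6, 1 of 3, 3 of 7 and 5 of 11 Pdgfra-detected cells, against 5 of 23, 7 of 25, 8 of 43 and 13 of 64 of the others. Its mean level was higher in the Pdgfra-detected cells in 4 of 4 mice, by 2.23, 0.35, 1.69 and 0.80 on the log2(TPM + 1) scale (1.26 ± 0.85, SD, n = 4). Fgfr3 also was higher in 4 of 4 mice, by 2.25, 1.30, 4.86 and 4.31, where the value of Lgr5 mouse 2 rested on 1 cell. These were 2 of the 10 members, and 5.93% of 19715 genes were higher in 4 of 4 mice. On summed reads Fgf10 had a log2 fold change of 1.65 ± 2.33 (adjusted p = 0.973 by edgeR). It stood at 61.3, 7.42, 14.1 and 18.99 CPM in the Pdgfra-detected cells and at 2.42, 42.8, 19.8 and 0.871 in the others, so the reads were higher in only 2 of 4 mice.

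**Figure D3:**
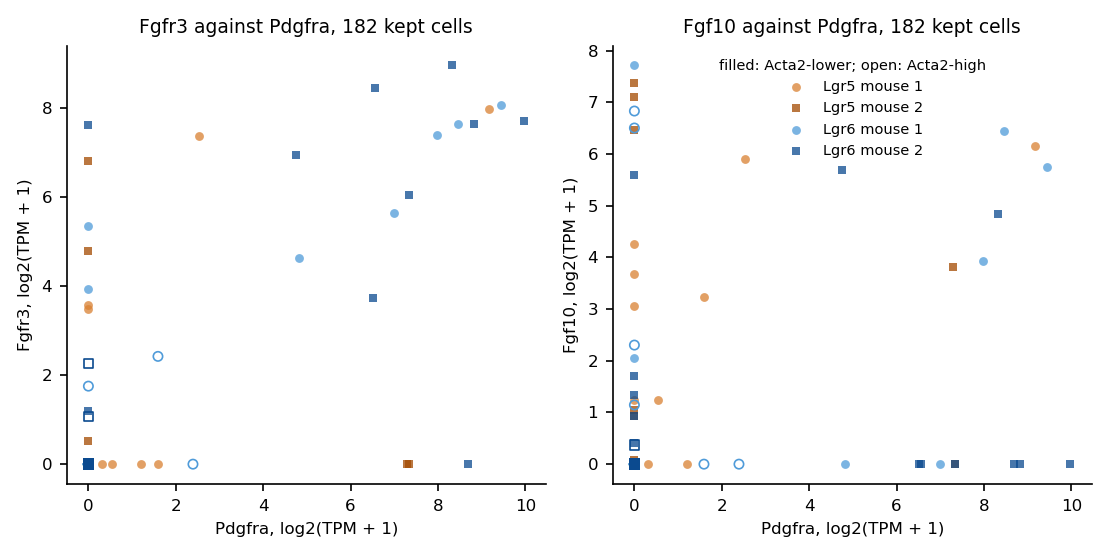
Fgfr3 (left) and Fgf10 (right) against Pdgfra in each kept cell, all axes in log2(TPM + 1); colours and shapes give the mouse, and open symbols are Acta2-high cells. Most of the 17 cells with reads of both Fgfr3 and Pdgfra lie at the upper right of the left panel, while the 33 cells with Fgf10 reads and no Pdgfra lie on the left edge of the right panel.

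Within the Lgr6 line, Fgfr3 was detected in 5 of 5 and 8 of 9 Acta2-lower cells with Pdgfra. All 5 Lgr6 cells with Fgfr4 held Pdgfra, Fgfr3 and Fgf7, and 0 of them held Fgfr2. In the Lgr5 line, 0 of 9 Pdgfra-detected cells held Fgfr4, which by the same limit of 3 cells allows a share of up to 33.3% with a read. The difference of the Pdgfra contrast between the lines was tested as an interaction. It was 1.59 ± 1.82 for Fgfr3 and 0.90 ± 5.42 for Fgf10, each with an adjusted p of 1 by edgeR, which called 0.00883% of 11327 genes, namely Inmt, while DESeq2 called 3.20%. Of the 8 members tested, 0 were called by either tool and 0 had an unadjusted p under 0.05. Their median was 0.94, beside -0.07 for all genes.

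Fgfr2 reads ran the other way. Its CPM in Pdgfra-detected cells was 2.38, 89.7, 13.2 and 93.1, below the 26.01, 105.9, 152.95 and 142.7 of the other cells in each mouse, although its mean log2(TPM + 1) was lower in only 3 of 4 mice. The log2 fold change was -1.92 ± 0.999 (unadjusted p = 0.0863, adjusted p = 0.822 by edgeR). Among cells that were neither Acta2-high nor Pdgfra-detected, Fgfr2 was found in 9 of 22, 8 of 25, 12 of 18 and 18 of 28. Cells with Epcam above 1 TPM had Fgfr2 in 1 of 7, 6 of 8, 3 of 3 and 4 of 4. Of these Epcam cells, 3, 1, 0 and 0 were Pdgfra-detected. The line difference in mean level was still 1.84 without cells that held Epcam or Sftpc.

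Fgf18 had 794 reads in the Lgr6 cells without Pdgfra and 0 in 18 Lgr6 cells with it, at least 58.3-fold lower against a floor of 3 reads over those 18 cells. Of the reads, 771 came from 6 cells of mouse 2, and the 23 reads of mouse 1, from 2 cells, give a bound of only 1.58-fold. These bounds treat reads as independent, which PCR reads are not. By cells, 2 of 43 and 6 of 64 against 0 of 7 and 0 of 11 set no bound. In the Lgr5 mice, in contrast, Fgf18 was detected in 1 of 6 and 2 of 3 Pdgfra-detected cells. Its contrast over the 4 mice was -4.27 ± 2.69 and did not pass the test. The contrasts of Fgf7, Fgf1, Fgf9 and Fgfr1 were -0.15 ± 0.92, -2.15 ± 2.171, -3.004 ± 2.73 and 0.45 ± 0.81 (SE), and none of them passed the test.

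**Figure D4:**
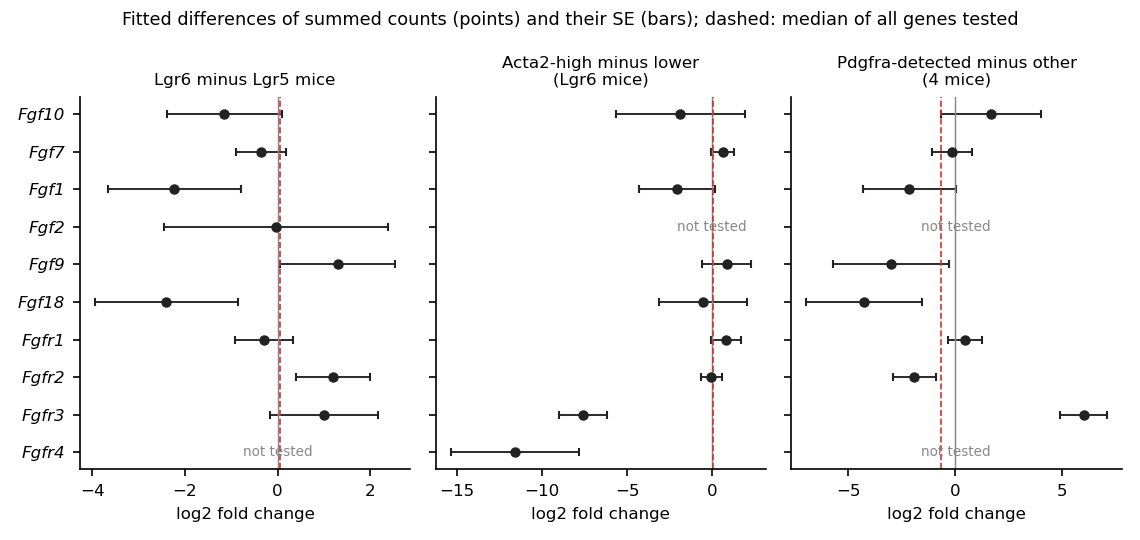
Log2 fold changes of the members from edgeR's fits for the lines (Lgr6 minus Lgr5), the Acta2 classes (high minus lower) and the Pdgfra classes (detected minus other), with bars of 1 SE and the median of all genes tested as a dashed line. Fgfr3 lies at -7.63 and 6.00 in the Acta2 and Pdgfra panels; the fitted value of Fgfr4 is set against a class with 0 reads and is no estimate of size.

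The Acta2 and Pdgfra comparisons share the Lgr6 cells, so the low Fgfr3 value in the first and the high value in the second are not separate observations. Of the 27 Pdgfra-detected cells, 4 were Acta2-high and 6 held Pdgfra by a single read.

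Across all kept cells, the genes whose levels were most like those of Fgf10 were Cd40, Tcf21, Slc36a2, Cxcl14 and Tnfsf13b, with Pearson's r of 0.46, 0.43, 0.43, 0.43 and 0.41 after each mouse mean was subtracted. Tcf21 is a transcription factor of lung fibroblasts. Among 12427 genes found in at least 10 cells, Fgfr3 ranked 14 (r = 0.35), Pdgfra 21 (r = 0.33) and Fgfr2 12421 (r = -0.22). For Fgfr3, looked at after its values were seen, Dpep1, Hsd11b1 and Inmt led with 0.80, 0.78 and 0.76, and Pdgfra ranked 8 with 0.74. In Lgr5 mouse 2 alone, Dpep1, Hsd11b1 and Inmt had only -0.055, -0.055 and 0.29, against 0.60 to 0.90 in the other mice. Cells within a mouse share their library preparation and differ in depth, most genes were found in few cells, and these values are descriptions.

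The rest of the pathway was followed in lists of other FGF ligands (16 genes), co-receptors and heparan sulphate carriers (14), adaptors (8) and target and feedback genes (16). Of the other ligands, 9 of 16 were detected in any cell, with Fgf5 (mean level 1.21, 69 cells) and Fgf13 (0.98, 48 cells) highest by mean log2(TPM + 1) and Fgf12 found in the most cells (80). Of the co-receptors all 14 were detected, with Sdc4 (8.63) and Sdc2 (3.37) highest by mean level. Shc1 and Grb2, which link the receptors to Ras, had the highest mean levels among the adaptors, as did the early response genes Egr1 (7.92) and Myc (4.41) among the targets. No gene of these 4 lists was called by edgeR in any of the 5 comparisons.

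Between the lines, 5, 13, 8 and 15 of the listed genes were tested, 1 in each list had an unadjusted p under 0.05, and DESeq2 called 2 of them, named here after their values were seen. These shares of 9.76% and 4.88% of the 41 genes were near the 9.31% and 4.03% of all genes. Etv1, a transcription factor that FGF signalling induces in several tissues, stood at 9.18 and 7.55 CPM for the Lgr5 line against 224 and 92.5 for the Lgr6 line. Its log2 fold change was 4.24 ± 0.75 (adjusted p = 0.327 by edgeR, 4.71e-05 by DESeq2). Fgf13, which lacks a secretion signal and acts inside cells, had a log2 fold change of -4.54 ± 1.66 (adjusted p = 0.447 by edgeR, 0.0157 by DESeq2).

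Between the Acta2 classes, 1 other ligand, 5 co-receptors and 5 targets had an unadjusted p under 0.05 by edgeR, and DESeq2 called 2 co-receptors higher and 3 lower and 2 targets lower. That is 11 and 7 of 39 genes tested, or 28.2% and 17.9%, beside 7.68% and 6.82% of all genes. Among the called genes was Dusp6, a phosphatase that limits FGF signalling through ERK, at -4.08 ± 0.70 (adjusted p = 0.382 by edgeR, 1.89e-05 by DESeq2), and the heparan sulphate carrier Gpc3 at -5.93 ± 1.41 (0.602 and 6.1e-06). Fgfrl1 stood at 19.99 and 28.7 CPM in Acta2-high cells and at 0 in lower cells of both mice (0.602 and 5.42e-06). Sdc1 stood at 0 in Acta2-high cells and at 15.96 and 149.1 CPM in lower cells (0.384 and 4.62e-12). DESeq2 also called Sdc3 higher, though it did not go one way in both mice, and Fgfbp1 and the target Flrt3 lower. In Pdgfra-detected cells, 3 co-receptors and 2 targets had an unadjusted p under 0.05. There Gpc3 had 5.35 ± 2.20 (0.746 and 0.00197), while DESeq2 called the co-receptors Sdc1 and Sdc3 and the targets Spred1 and Flrt3 lower. Both tools thus picked 5 of 32 genes (15.6%), edgeR without adjustment, beside 6.43% and 6.93% of all genes. For the difference of the Pdgfra contrast between the lines, DESeq2 called 1 of 32 listed genes (3.125%, beside 3.20% of all genes). It was the target Spred2, at -11.04 ± 3.49 by edgeR (adjusted p = 0.0323 by DESeq2). Among Acta2-lower cells, DESeq2 called Etv1 and Fgf13 between the lines, 5.41% of 37 listed genes beside 3.0% of all. No adaptor was called by either tool in any comparison.

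Wells that the authors removed were looked at separately, because the filter took out far more Lgr5-line than Lgr6-line wells that had at least 2000 genes. These were 59 wells of Lgr5 mouse 1, 54 of Lgr5 mouse 2 and only 4 and 6 of the Lgr6 line. In the Lgr5 line Fgf10 was found in 42 of 59 and 28 of 54 of them, against 9 of 29 and 8 of 28 kept cells. Fgfr3 was found in 37 of 59 and 25 of 54, against 4 of 29 and 4 of 28. Of these Lgr5-line wells, 54 held both Ptprc and Pecam1 at 1 TPM or more, and those had a median of 11263 and 7490 genes in mouse 1 and 2, against 4277 and 3640 in kept cells. Of the 10 members, 5 had a higher share in the removed wells than in kept cells of both Lgr5 mice, as did 76.6% of 22785 genes. Reads per well were close to those of kept cells in all (medians of 269518 and 263129).

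**Figure D5:**
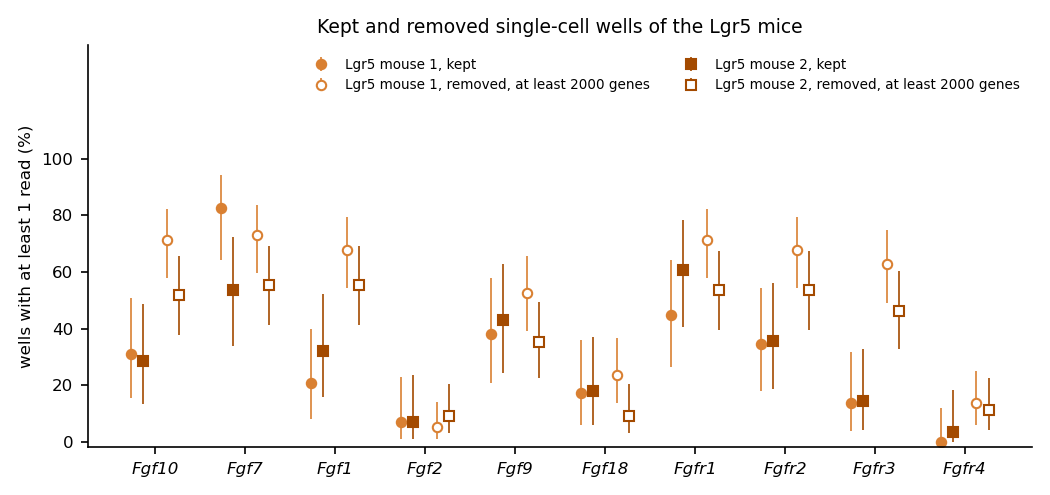
Share of wells of the Lgr5 mice with at least 1 read of each gene, in percent, for kept cells (filled) and for removed wells with at least 2000 genes (open), with exact Clopper-Pearson 95% intervals. Fgf10, Fgf1, Fgfr2 and Fgfr3 lie higher in the removed wells of both mice, and Fgf7 does not.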

How the data were processed

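Full-length cDNA of sorted single cells was amplified (modified SmartSeq2) and sequenced as 38 bp paired reads. The authors pseudo-aligned the reads with kallisto (0.43.0, k-mers of 31, mm10; bcl2fastq 2.17.1.14 per the submitters' processing notes) and deposited counts per gene and log2(TPM + 1) values for 384 wells, with a separate log2(TPM + 1) table of the 182 kept cells. They removed wells under 2000 genes, with outlying gene numbers or weak housekeeping genes, or with Ptprc or Pecam1 at 1 TPM or more, and their criteria also name R26-Tom expression. The annotation release is not given in the sources used here. Authors' counts scaled to a common depth were not used. No 2 wells were identical, and no doublet caller was run.

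Since the mouse is the replicate, deposited counts of kept cells were added up by mouse, and by class within a mouse. Sums were tested with edgeR 4.0.16 (TMM, filterByExpr, glmQLFit, glmQLFTest; R 4.3.3), adjusted by Benjamini-Hochberg over all genes tested, with 0.05 as the threshold. Classes of the same mouse were paired by a mouse block, as they come from the same animal. The SE is the log2 fold change divided by the square root of F. CPM values use the TMM-scaled totals. Counts carry no molecular identifiers. Summed counts per mouse were 9874249, 13198680, 28875278 and 124650544. The ribosomal RNA precursor Rn45s took 25.0 to 37.5% of them. Alternatives were DESeq2 1.42.0, limma 3.58.1 on mean TPM (pseudocounts 1 and 0.1), no filter, library size, no or added blocks, thinning to 99000 reads (19 shallower cells left out), other thresholds and each mouse left out. Leaving out Rn45s, Acta2-lower cells only, no Pdgfra-detected cells and mice left out of the interaction were chosen after seeing the data. Tests were run first on simulated data. In a sum of cells, fewer expressing cells and less RNA per cell cannot be told apart.

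All 10 members are named. Other pathway genes are named if called, and otherwise the 2 with the highest mean level per list. Likeness to Fgf10 names the 5 highest r. Members and lists were chosen with earlier results of these data known. Coordinates are from GENCODE M21 (GRCm38, the build mm10). Python 3.11.15, numpy 2.4.6, pandas 2.3.3, scipy 1.17.1 and matplotlib 3.10.9 were used.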

Additional observations from a re-analysis of the deposited data

Results flagged for a closer look

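In the Lgr5 mice, 5 of 10 members were detected more often in both mice in the removed wells with at least 2000 genes, which no comparison uses, than in kept cells, and so were 76.6% of 22785 genes. Fgf10 and Fgf1 were each found in 61.9% of these removed wells, against 29.8% and 26.3% of the 57 kept cells. Fgfr2 was found in 61.1% against 35.1%, Fgfr3 in 54.9% against 14.04% and Fgfr4 in 12.4% against 1.75%. Wells of both mice are pooled in these shares. By mouse, the removed share exceeded the kept share by 40.2 and 23.3 percentage points for Fgf10, by 47.1 and 23.4 for Fgf1, by 33.3 and 17.99 for Fgfr2, by 48.9 and 32.01 for Fgfr3 and by 13.6 and 7.54 for Fgfr4, beside a median over all genes of 16.9 and 6.22. Removed wells held more genes, with a median of 7236 against 4051, at a similar median of 269518 against 263129 reads. The part of doublets or of other cell types in this was not tested.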

How the results depend on the processing

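Over the alternatives, the members' log2 fold changes gave 531 values, of which 485 had the direction and the call of the reported value, 42 changed sign and 4 passed the threshold where it had not. Those 4 were the Fgfr3 and Fgfr4 values named above.

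The number of genes called depended on the tool. For the lines it was 0, and 567 by DESeq2, 408 without the filter, 7 in thinned cells, 38 and 16 by limma with pseudocounts of 1 and 0.1, 1 without Epcam or Sftpc cells, and 0 to 34 with each mouse left out (34 without Lgr6 mouse 1, 7 without Lgr6 mouse 2). In Acta2-lower cells it was 0, and 389, 1.6e+02 (88 higher and 69 lower), 4, 28 and 3 in the same order, and 6 to 74 with a mouse left out (25 and 6 without Lgr5 mouse 1 and 2, 27 and 74 without Lgr6 mouse 1 and 2). For the Acta2 classes it was 4, and 923 by DESeq2, 0 without the block, 53 in thinned cells, 42 and 11 by limma, 0 without Epcam or Sftpc cells, 14 and 0 at thresholds of 10 and 12, 11 without Pdgfra-detected cells and 7 without Rn45s. The fit at a threshold of 10 also took in both Lgr5 mice, with 3 and 4 Acta2-high cells. It therefore differs from the reported fit in its mice as well as in its threshold. For the Pdgfra classes it was 4, and 785 by DESeq2, 15 without the block, 25 in thinned cells, 23 and 2 by limma, 8 without Epcam or Sftpc cells, and 2 to 6 with a mouse left out (2 without Lgr6 mouse 2). For their difference between the lines it was 1, and 363 by DESeq2, 0 with Pdgfra above 1 TPM and 0 to 1 with a mouse left out (0 without either Lgr6 mouse). With Pdgfra above 1 TPM, Lgr5 mouse 2 had too few Pdgfra cells and left the fits, so mouse 1 alone stood for the Lgr5 line. The Pdgfra fit without Epcam or Sftpc cells held the Lgr6 mice only. A lone mouse was assumed to vary like the others, and leaving a mouse out of the Acta2 fit gave values without a test. The cause of these moves was not tested.

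Same-numbered mice of the 2 lines share only a number (r = 0.0393 between their deviations over 14086 genes), and with that replicate block the lines had 0 calls, in all kept cells and in Acta2-lower cells.

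Values that changed sign were mostly near 0 or rested on 1 mouse. With a mouse left out, the line values ran from -9.02 to 0.98 for Fgf2, from -0.72 to 0.0015 for Fgf7 and from -0.012 to 2.83 for Fgfr3. In the same way the Acta2 values ran from -5.48 to 1.60 for Fgf10, from -2.42 to 1.42 for Fgf18 and from -0.52 to 0.38 for Fgfr2, and the Pdgfra value of Fgf7 from -0.73 to 0.61. The interaction ran from -5.41 to 2.31 for Fgf1, -2.67 to 4.52 for Fgf10, -6.80 to 8.89 for Fgf9, -1.80 to 1.40 for Fgfr2 and -0.050 to 3.24 for Fgfr3. Without the block, Acta2 gave 0.69 for Fgf10, and Pdgfra gave 1.18 for Fgf1, 0.17 for Fgf7 and 0.39 for Fgf9. Without Epcam or Sftpc cells, Acta2 gave 0.70 for Fgf1 and 0.28 for Fgfr2, Pdgfra 0.73 for Fgf7 (Lgr6 mice only), and the lines in Acta2-lower cells -0.99 for Fgf9. At an Acta2 threshold of 10, where both Lgr5 mice joined the fit, Fgf7 had -0.34 and Fgf9 -0.89. By limma, Fgf9 had -0.26 and -0.28 and Fgfr2 0.16 and 0.16 between Acta2 classes, where Fgfr2 had 0.039 with library size and 0.17 in thinned cells. The Pdgfra value of Fgf7 was 0.014 by DESeq2, 0.043 in thinned cells, 0.75 with Pdgfra above 1 TPM (without Lgr5 mouse 2) and 0.12 in Acta2-lower cells. With Pdgfra above 1 TPM, the interaction gave 0.66 for Fgf1, -3.02 for Fgf10, 0.97 for Fgf18, -5.07 for Fgf9, 0.79 for Fgfr2 and -0.48 for Fgfr3. In these values Lgr5 mouse 1 was the only Lgr5 mouse. No member was called by edgeR under any alternative except Fgfr3 in the Pdgfra comparison without the block, and Fgfr3 kept its sign in the Acta2 and Pdgfra comparisons under every alternative run.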

Other observations

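Each mouse also had 1 well with a pool of cells, which has no replicate. The pool of Lgr5 mouse 1 held 243 reads of Fgfr3, 34 of Fgf10, 64 of Fgf7 and 31 of Fgfr4 among 353310 reads, and 0 of Fgfr1 and Fgfr2. That of Lgr5 mouse 2 held 66 reads of Fgf18 and 32 of Fgfr1, with more reads of Fgf7 than of either, among 204948 reads. In the Lgr6 line, the pool of mouse 1 had only 66586 reads, 17 of them from Fgf7, and the pool of mouse 2 held 351 reads of Fgfr2, 57 of Fgfr1 and 35 of Fgf1 among 2203576 reads. Fgf10 and Fgfr3 had 0 reads in both Lgr6 pools.

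Among cells in which the Lgr5 transcript itself was detected, Fgf10 was found in 6 of 23 and 8 of 21 for the Lgr5 line and 5 of 11 and 8 of 28 for the Lgr6 line. Among cells with the Lgr6 transcript it was found in 1 of 8, 3 of 9, 2 of 13 and 3 of 26. Of the 83 cells with Lgr5, 27 held Fgf10, and of the 56 cells with Lgr6, 9 did. Depth differs between these cells, and the difference was not tested.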
